A study of Pseudotsuga menziesii with 75 samples.

Results

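Transcripts of the flavonoid pathway were followed in needles of adult Douglas-fir (Pseudotsuga menziesii), a conifer, over one growing season. Membership rests on the deposited annotation, and no measured value entered the rule. Every assembled transcript (contig) whose deposited Arabidopsis annotation begins with the locus of chalcone synthase (CHS, AT5G13930), chalcone isomerase (CHI, AT3G55120), flavanone 3-hydroxylase (F3H, AT3G51240), flavonoid 3'-hydroxylase (F3'H, AT5G07990), flavonol synthase (FLS, AT5G08640), dihydroflavonol reductase (DFR, AT5G42800), leucoanthocyanidin dioxygenase (LDOX, AT4G22880) or anthocyanidin reductase (ANR, AT1G61720) was taken. These 8 loci held 186 of the 59189 contigs, of which 34273 had any Arabidopsis locus.

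The 75 libraries came from 25 trees that grew at 2 field sites, Schluchsee and Wiesloch, from seed of 2 provenances (seed sources), Cameron Lake and Salmon Arm. There were 7 Cameron Lake trees and 6 Salmon Arm trees at Schluchsee, and 5 Cameron Lake trees and 7 Salmon Arm trees at Wiesloch. Needles grown in 2009 were taken, at a time of day labelled noon, from the sun-exposed upper canopy in May (n = 20 libraries), June (17), July (20) and September (18) of 2010, with no treatment. The 16 groups of provenance, site and month held 4 or 5 libraries each, with most trees sampled in several months. All libraries of a site and month came from the same day, at Schluchsee 27 May, 30 June, 28 July and 15 September and at Wiesloch 12 May, 16 June, 14 July and 8 September. The recorded clock times, known for 62 libraries and read here as seconds of the day, lay between 12.8 and 15.7 h, with medians between 13.3 and 13.7 h over the 4 Schluchsee visits and between 13.2 and 14.7 h over the 4 Wiesloch visits. Month and site effects therefore cannot be told apart from the conditions on those days. Clock times were known for only 3 of the 8 Wiesloch June libraries and 6 of the 10 Schluchsee May libraries. Fits with clock time as a covariate thus lose libraries unevenly. Whether calls lost in them reflect clock time or the missing libraries was not tested.

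Flavonoids are built from phenylalanine-derived coumaroyl-CoA. CHS, the entry enzyme, condenses it with malonyl-CoA to a chalcone, CHI closes the ring to a flavanone, and F3H makes dihydroflavonols, to which F3'H, a cytochrome P450, adds a hydroxyl group. There the pathway divides: FLS makes flavonols, whereas DFR, LDOX and ANR lead through leucoanthocyanidins and anthocyanidins to the flavan-3-ol units of condensed tannins. In conifer needles flavonols and related phenolics are known as ultraviolet screens, and tannins as stores of phenolics in the vacuole.

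Library totals lay between 18.5 and 47.5 megacounts (median 34.1 megacounts). Levels are given as CPM, counts per megacount of the library, so 1 CPM stood for 18.5 to 47.5 counts. All values below are CPM scaled by the trimmed mean of M-values. They are not divided by contig length, so levels are compared between samples and not between contigs. All 186 members passed the filter on low counts. Of them 81 averaged 10 CPM or more, 79 lay between 1 and 10 CPM and 26 below 1 CPM. Several contigs of a locus can be near-identical pieces or alleles of the same gene, among which reads may have been split, so counts of contigs are not counts of genes. The number of contigs was 39 for CHS, 3 for CHI, 17 for F3H, 54 for F3'H, 6 for FLS, 43 for DFR, 17 for LDOX and 7 for ANR. The deposited descriptions name a chalcone synthase for all CHS contigs, but at 2 loci they are mixed. At the F3'H locus 26 contigs were described as flavonoid hydroxylases or monooxygenases, 24 as similar to another cytochrome P450, 71A1, and 4 as something else or nothing. At the DFR locus 28 were described as dihydroflavonol reductases, 14 as anthocyanidin reductases and 1 as another protein.

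The needle label was checked against photosynthetic markers, of which 7 of the 10 mesophyll loci listed were measured. Their averages ran between 25.5 CPM for LHCB4.1, an antenna protein of photosystem II, and 3704 CPM for RCA, the activase of Rubisco, and the other 5 averaged 925 CPM or more. The summed mesophyll level had a median of 14371 CPM in May, 17814 in June, 11960 in July and 9510 CPM in September, and single libraries ranged between 6815 and 24250 CPM. In bulk needles, fewer cells of a type and less RNA per cell cannot be told apart. Summed medians by month of the markers of other cells lay between 31.1 and 38.5 CPM for xylem (6 of 8 loci measured), 15.7 and 29.3 CPM for dividing cells (2 of 6), 38.1 and 82.7 CPM for guard cells (3 of 5, of which SLAC1, an anion channel, averaged 52.7 CPM, above LHCB4.1) and 11.0 and 17.9 CPM for the anther wall (2 of 6). The part of these shifts in the flavonoid results was not tested. Over 645 contigs that were high in some trees and near absent in others, libraries of the same tree correlated with a median r of 0.824 and libraries of different trees with 0.034. Of 72 libraries with another from their tree, 3 were most like a library of another tree of the same provenance and site: Salmon Arm tree 16 at Schluchsee in May and, at Wiesloch in July, Salmon Arm tree 11 and Cameron Lake tree 16. A further 3 libraries had 4 rather than 2 as their most frequent low count, namely Salmon Arm trees 13 and 14 at Schluchsee in September and Salmon Arm tree 14 at Wiesloch in July. Without the first 3 libraries the count of members called stayed within 1.5 times in 22 of 23 comparisons, and without the second 3 in 21 of 23. The exceptions are given where they fall.

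The first question was how the pathway changed through the season. Between June and May 54 of the 186 contigs passed an adjusted p of 0.05, 14 higher and 40 lower in June, where 19% of all 59177 contigs tested passed (9.57% higher, 9.45% lower). With tree as a block the June count was 90 (28 higher, 62 lower), and with clock time as a covariate, in the 62 libraries that have one, it was 34. P-values of the fit without block measure the spread between libraries and take libraries of the same tree as independent. Month comparisons in it do not use the pairing by tree. Comparisons within a month take their spread partly from repeated libraries of the same trees. Shares of all contigs given here and below are those of the fits without block or clock time. They are not given for the alternatives, so the alternative counts cannot be set against a background. In July against June only 8 passed (5 higher, 3 lower; 13.0% of all contigs). That count was 28 with the tree block and 0 with clock time, and between 3 and 5 when any of 7 trees was left out (Cameron Lake trees 9, 11 and 15 at Schluchsee and 9 and 12 at Wiesloch, and Salmon Arm trees 12 and 13 at Wiesloch). In September against July 79 contigs passed, 47 higher and 32 lower, with 32.4% of all contigs (15.3% higher, 17.1% lower). Over the whole season, September against May, 64 passed (28 higher, 36 lower), with 32.5% of all contigs (14.7% higher, 17.9% lower). The median log2 change of the members in these 4 comparisons was -0.18, 0.14, 0.04 and -0.09, and that of all contigs between -0.02 and 0.01.

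**Figure D1:**
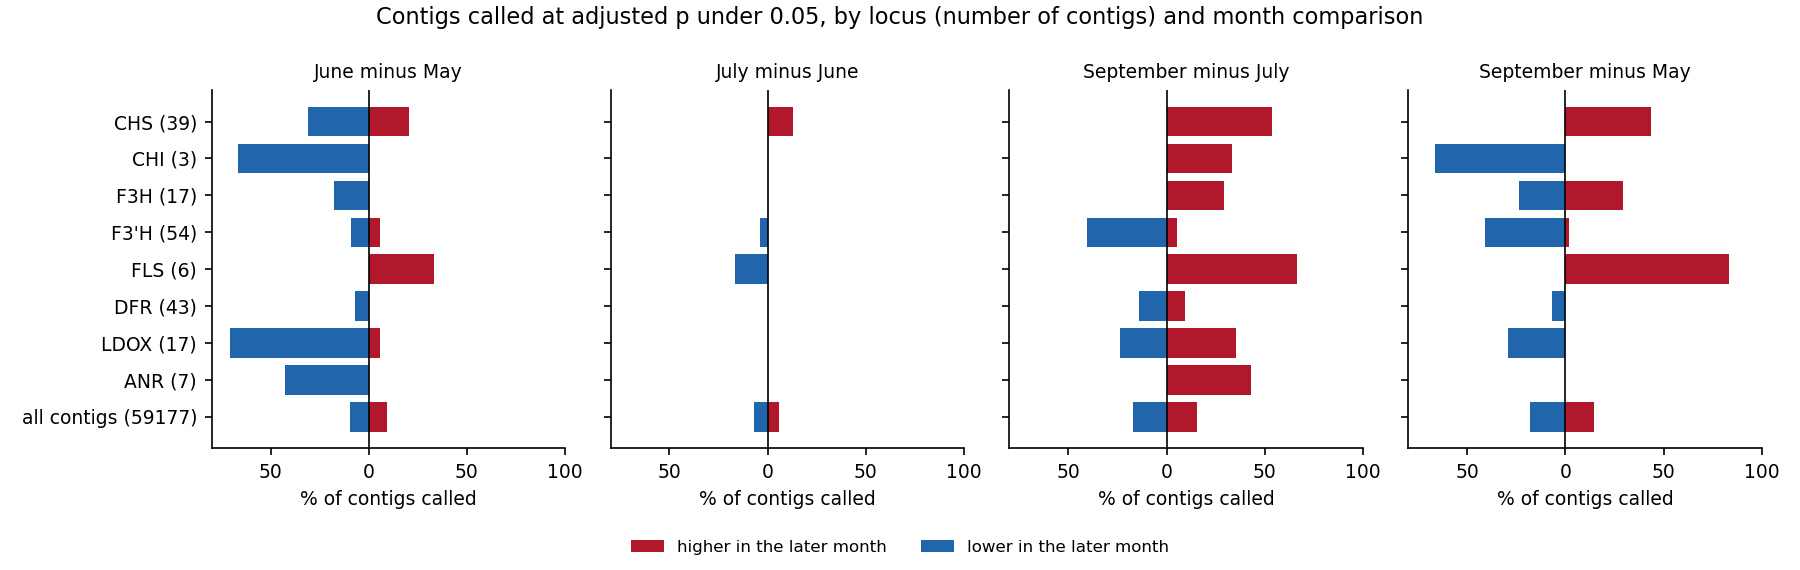
Percentage of the contigs of each locus that passed an adjusted p of 0.05 in each month comparison, higher to the right and lower to the left of 0, with all 59177 contigs tested in the bottom row. CHS and FLS bars point to the right in September (21 of 39 and 4 of 6 contigs higher than in July), whereas F3'H points to the left (22 of 54 lower).

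**Figure D2:**
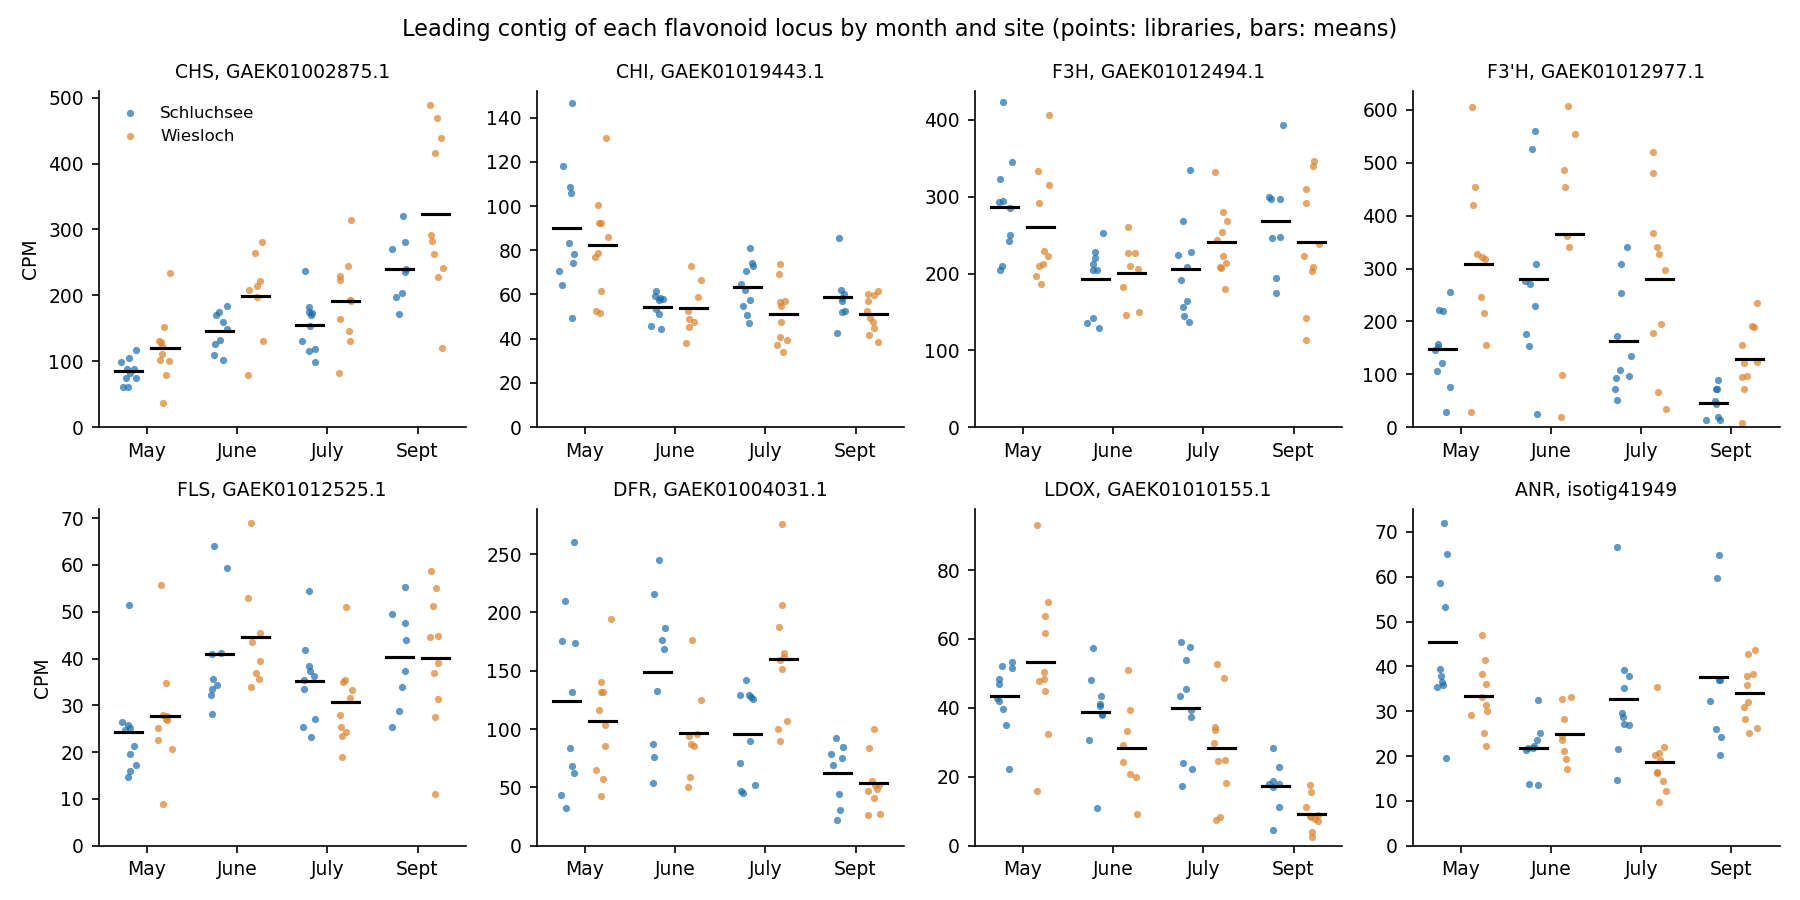
CPM of the leading contig (highest mean) of each locus by month, with Schluchsee libraries on the left and Wiesloch libraries on the right of each month; points are libraries and bars are means. CHS climbs to its highest mean in September (287 CPM), while LDOX (12.8 CPM), F3'H (92.0 CPM) and DFR (57.2 CPM) have their lowest means then.

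The leading CHS contig, GAEK01002875.1, rose through the season. Its lowest, median and highest libraries had 36.0, 99.2 and 233 CPM in May, 79.9, 171 and 281 CPM in June, 82.7, 172 and 314 CPM in July and 121, 266 and 488 CPM in September. The months overlapped in single libraries, but the September median exceeded the highest May library. The contig was higher in June than in May (log2 fold change 0.76 ± 0.16 SE, adjusted p = 2.85e-04) and higher in September than in July (log2 fold change 0.69 ± 0.16 SE, adjusted p = 4.82e-04). Over the season the difference was larger (log2 fold change 1.46 ± 0.16 SE, adjusted p = 3.50e-11). July and June had nearly the same mean, 174 CPM in July and 171 CPM in June. At both sites September was highest, with means of 240.0 ± 49.2 CPM at Schluchsee (SD, n = 8) and 324 ± 122 CPM at Wiesloch (SD, n = 10) in September. The next most abundant contig, GAEK01002877.1, had means of 97.3 ± 39.6, 164 ± 53.6, 167 ± 56.8 and 274 ± 103 CPM (SD; September against May, 1.47 ± 0.17 SE, adjusted p = 1.65e-10). In all, 17 of 39 CHS contigs rose between May and September and none fell, 15 of them with a mean of 10 CPM or more. The 8 contigs that rose in June, between 30.1 and 181 CPM on average, all rose again between July and September.

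Less abundant CHS contigs took another course. In June 12 CHS contigs were lower than in May, all but 1 of them below 10 CPM, by log2 changes between -1.79 and -0.65, and 9 of these 12 were among the 21 that were higher in September than in July. Contig GAEK01002892.1 shows the dip: its lowest, median and highest libraries had 3.57, 6.93 and 18.2 CPM in May, 0.955, 2.52 and 5.50 CPM in June, 1.91, 3.78 and 16.3 CPM in July and 2.48, 9.63 and 29.4 CPM in September. It fell in June (log2 fold change -1.68 ± 0.25 SE, adjusted p = 4.01e-07) and was higher in September than in July (log2 fold change 1.11 ± 0.23 SE, adjusted p = 1.23e-04). The means of this contig were lower in June at both sites. In June they were 1.74 ± 0.491 CPM at Schluchsee (SD, n = 9) and 3.63 ± 1.0 CPM at Wiesloch (SD, n = 8). In May they were 8.13 ± 4.39 CPM at Schluchsee and 8.21 ± 4.61 CPM at Wiesloch (SD, n = 10 each). Over the CHS contigs, calls of a June fall came mostly from Schluchsee. With each tree left out in turn, 11 to 14 CHS contigs were lower in June there, and 1 or 2 at Wiesloch. In the full fit 14.1% of all contigs passed in this step at Schluchsee and 7.77% at Wiesloch, in either direction. Shares of falls alone by site are not given, so these CHS counts have no matching background. Contig GAEK01009783.1, at 54.3 CPM on average, was likewise lowest in June (48 ± 25.7, 30.3 ± 13.4, 51.7 ± 28.8 and 86.9 ± 50.8 CPM, SD), but its June call was lost in 15 of the fits that changed a setting or left out a tree, the tree block among them. Without the 3 libraries with a higher floor, 14 rather than 21 CHS contigs were higher in September than in July.

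**Figure D3:**
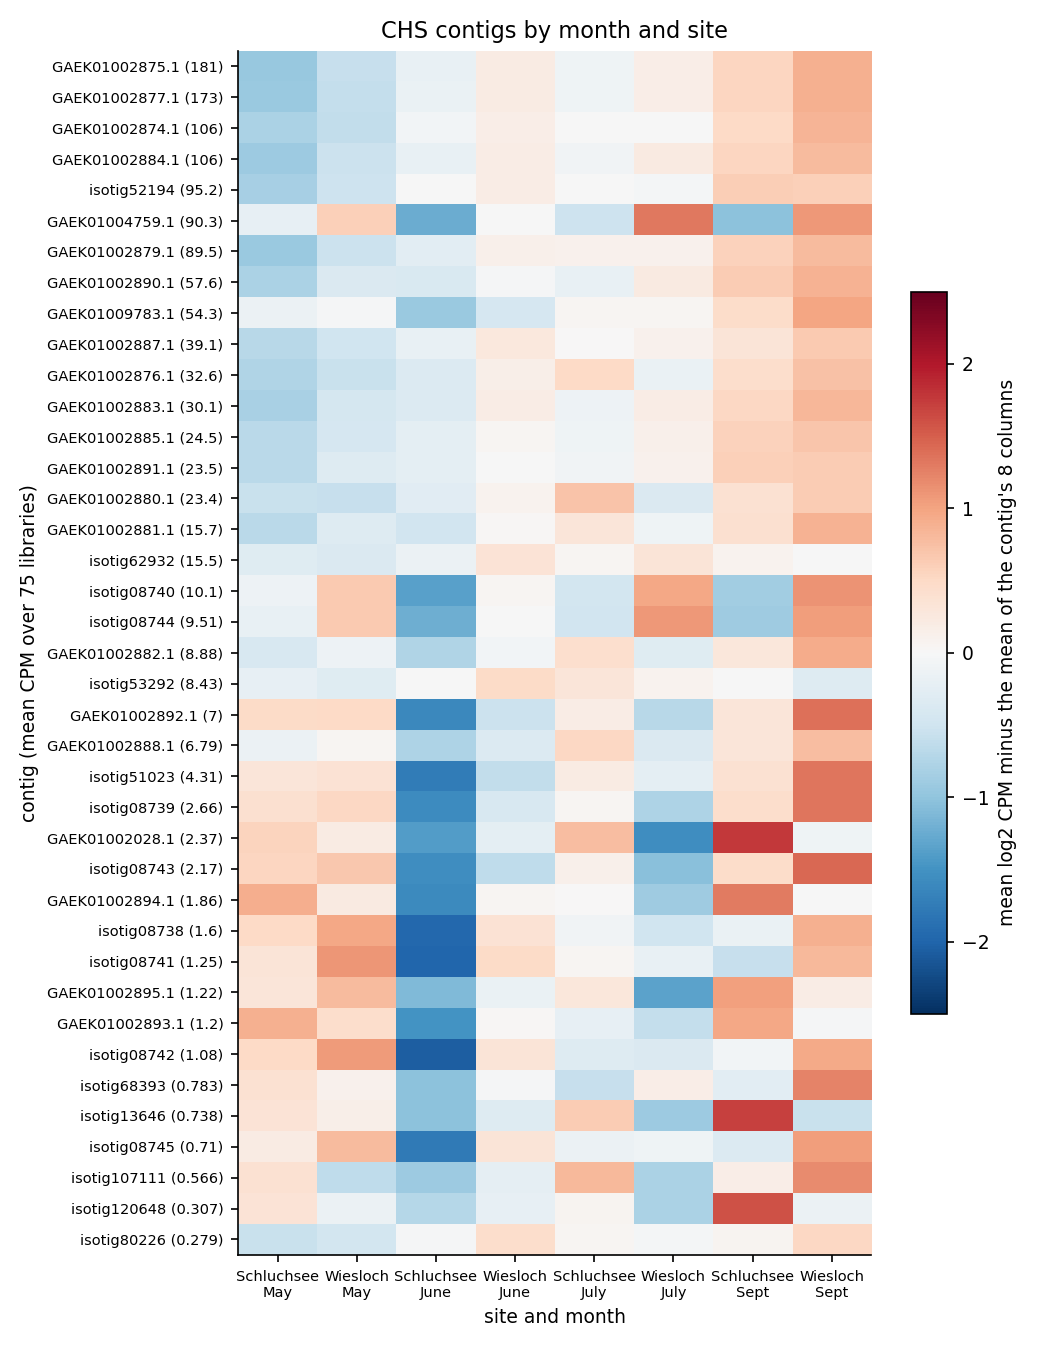
Mean log2 CPM of each of the 39 CHS contigs by site and month, less the mean of its 8 columns, with contigs ordered by mean CPM from 181 at the top to 0.279 at the bottom. The abundant contigs at the top are lowest in May and highest in September, and many of the contigs below 10 CPM are lowest in June, above all at Schluchsee.

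CHI was highest in May. The leading contig, GAEK01019443.1, had lowest, median and highest libraries of 49.2, 81.0 and 147 CPM in May, 38.0, 53.5 and 72.9 CPM in June, 34.2, 56.7 and 81.1 CPM in July and 38.6, 54.7 and 85.6 CPM in September. It fell in June (log2 fold change -0.65 ± 0.10 SE, adjusted p = 1.31e-06) and was lower in September than in May (log2 fold change -0.63 ± 0.10 SE, adjusted p = 6.30e-07). The second CHI contig, isotig28263, had means of 23.8 ± 7.04, 14.4 ± 2.47, 15.7 ± 4.42 and 14.8 ± 3.28 CPM (SD) and fell alike in June (log2 fold change -0.70 ± 0.10 SE, adjusted p = 5.15e-07). The remaining contig, GAEK01018855.1, averaged 1.81 CPM and was lowest in July, at 1.30 ± 1.05 CPM (SD, n = 20); it was named after its values were seen.

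The leading F3H contig dipped in June. This contig, GAEK01012494.1, had lowest, median and highest libraries of 186, 268 and 423 CPM in May, 129, 205 and 261 CPM in June, 136, 218 and 335 CPM in July and 113, 247 and 393 CPM in September, with wide overlap between all months. It was lower in June than in May (log2 fold change -0.47 ± 0.13 SE, adjusted p = 0.00496), a call that was lost with clock time as a covariate (log2 fold change -0.45). Of the 17 F3H contigs 5 were higher and 4 lower in September than in May. The 4 that fell lay between 9.18 and 51.8 CPM, among them GAEK01001402.1, with medians of 28.6 CPM in September and 53.5 CPM in May (log2 fold change -0.86 ± 0.26 SE, adjusted p = 0.00708; not called with clock time). The 5 that rose lay between 0.268 and 2.45 CPM. In September against July 5 F3H contigs were higher and none was lower, and without the 3 libraries with a higher floor none was called.

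F3'H fell late in the season. The leading contig, GAEK01012977.1, described as a flavonoid 3'-hydroxylase, had lowest, median and highest libraries of 28.1, 218 and 606 CPM in May, 18.6, 309 and 607 CPM in June, 35.0, 187 and 520.1 CPM in July and 8.06, 80.7 and 234 CPM in September. Single libraries spread widely within each month, yet no September library reached the June median. The contig was lower in September than in July (log2 fold change -1.36 ± 0.32 SE, adjusted p = 5.30e-04) and than in May (log2 fold change -1.46 ± 0.32 SE, adjusted p = 2.14e-04). With tree as a block it was also lower in July than in June (log2 fold change -0.68), where the fit without the block gave -0.58 ± 0.31 SE, adjusted p = 0.241. Among the 26 contigs described as flavonoid hydroxylases 13 fell between July and September and none rose, and of the 24 described as similar to P450 71A1 7 fell and 3 rose.

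Some F3'H contigs had courses of their own. GAEK01020164.1, a flavonoid 3'-monooxygenase by its description, had medians of 18.6, 29.4, 30.4 and 12.5 CPM from May to September. It rose in June (log2 fold change 0.96 ± 0.21 SE, adjusted p = 3.69e-04) and was lower in September than in July (log2 fold change -1.15 ± 0.21 SE, adjusted p = 1.10e-05). The largest fall between May and September among the called members of 1 CPM or more was that of isotig06075, described as similar to P450 71A1. Its lowest, median and highest libraries had 0.460, 18.0 and 56.3 CPM in September and 40.5, 194 and 575 CPM in May (log2 fold change -3.47 ± 0.35 SE, adjusted p = 2.17e-12). Next came isotig06080 and isotig06081, both described as flavonoid 3'-hydroxylases (log2 fold change -3.39 and -3.34). By contrast, GAEK01019827.1, the next most abundant contig described as a flavonoid 3'-monooxygenase, passed in none of the 21 comparisons with a direction. Its monthly means were 149 ± 51.6, 126 ± 34.0, 132 ± 36.5 and 148 ± 47.3 CPM (SD). The most abundant contig similar to P450 71A1, GAEK01008199.1, had its lowest mean in June (158 ± 83.4 CPM, SD) and its highest in July (226 ± 121 CPM) and passed in none of the 4 month comparisons over both sites.

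FLS, at the flavonol branch, was higher after May. Its leading contig, GAEK01012525.1, had lowest, median and highest libraries of 8.80, 25.2 and 55.7 CPM in May, 28.1, 39.5 and 69.0 CPM in June, 19, 33.3 and 54.5 CPM in July and 11.1, 41.5 and 58.6 CPM in September. Most of the difference arose by June (log2 fold change 0.73 ± 0.15 SE, adjusted p = 2.27e-04), and September remained above May (log2 fold change 0.63 ± 0.15 SE, adjusted p = 6.98e-04). The lower July level did not pass in the fit without a block (-0.39 ± 0.15 SE, adjusted p = 0.077) and passed with it (log2 fold change -0.39). Summed over the locus, FLS was lower in July than in June without a block (log2 fold change -0.40 ± 0.13 SE, adjusted p = 0.019). The sum was higher in September than in July (log2 fold change 0.36 ± 0.12 SE, adjusted p = 0.0163). The other abundant FLS contig, isotig14605, also rose in June (log2 fold change 0.80 ± 0.14 SE, adjusted p = 8.14e-06), with means of 33.3 ± 13.7 CPM in June and 19 ± 7.31 CPM in May (SD). Of the 6 FLS contigs 5 were higher in September than in May and none was lower. Among them was isotig79436, named after its values were seen, with medians of 0.694 CPM in September and 0.281 CPM in July (log2 fold change 1.63 ± 0.31 SE, adjusted p = 3.04e-05).

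The leading contigs of DFR, the first enzyme of the tannin branch, fell in September, whereas over the locus 6 of 43 contigs were lower and 4 higher than in July (23.3% called, against 32.4% of all contigs). With counts summed over the locus the fall was smaller than in the leading contig (log2 fold change -0.19 ± 0.06 SE, adjusted p = 0.00844). By site the summed counts fell at Wiesloch (log2 fold change -0.29 ± 0.08 SE, adjusted p = 0.00329). At Schluchsee they did not pass (log2 fold change -0.10 ± 0.09 SE, adjusted p = 0.517). Between June and July the summed counts had fallen at Schluchsee (log2 fold change -0.25 ± 0.09 SE, adjusted p = 0.0224). At Wiesloch they had risen in that step (log2 fold change 0.22 ± 0.09 SE, adjusted p = 0.0461), and their month-by-site interaction passed (adjusted p = 0.0108). The leading contig, GAEK01004031.1, described as a dihydroflavonol reductase, had lowest, median and highest libraries of 32.6, 109.9 and 260.0 CPM in May, 49.9, 95.3 and 245 CPM in June, 44.9, 128 and 276 CPM in July and 21.6, 52.1 and 100.2 CPM in September. The highest September library lay below the median of May and of July. The contig was lower in September than in July (log2 fold change -1.12 ± 0.20 SE, adjusted p = 5.36e-06) and than in May (log2 fold change -0.97 ± 0.19 SE, adjusted p = 6.60e-05). Contig isotig14438, with the same description, fell as far (log2 fold change -1.08 ± 0.11 SE, adjusted p = 9.12e-12) with less spread, at 47.1 ± 11.5 CPM in September (SD, n = 18) and 109 ± 53.4 CPM in July (SD, n = 20). Of the 28 contigs described as dihydroflavonol reductases 5 fell between July and September (17.9%, against 17.1% of all contigs) and none rose. Of the 43 DFR contigs 18 passed in none of the 21 comparisons, among them isotig05393, whose monthly means lay between 28.8 CPM in June and 32.0 CPM in May.

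At the DFR locus 14 contigs are described as anthocyanidin reductases. Of these 14, 3 were lower in June than in May, and all 3 were among the 4 that were higher in September than in July (28.6%, against 15.3% of all contigs). GAEK01012051.1 had lowest, median and highest libraries of 41.0, 75 and 141 CPM in May, 29.3, 48.7 and 78.4 CPM in June, 19.4, 50.8 and 127 CPM in July and 41.3, 66.1 and 124 CPM in September. It fell in June (log2 fold change -0.66 ± 0.15 SE, adjusted p = 5.50e-04; not called with clock time) and was higher in September than in July (log2 fold change 0.48 ± 0.14 SE, adjusted p = 0.00689). An exception was isotig14437, which fell between July and September (log2 fold change -0.67 ± 0.14 SE, adjusted p = 1.11e-04), with means of 51.9 ± 26.5 CPM in September and 80.9 ± 42.2 CPM in July (SD).

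LDOX had the largest late fall among the leading contigs. GAEK01010155.1, described as an anthocyanidin synthase, another name of the enzyme, had lowest, median and highest libraries of 16.0, 48.1 and 93.2 CPM in May, 9.21, 38.0 and 57.3 CPM in June, 7.41, 34.0 and 59.1 CPM in July and 2.38, 11.3 and 28.4 CPM in September. It was lower in September than in July (log2 fold change -1.45 ± 0.22 SE, adjusted p = 4.32e-07) and than in May (log2 fold change -1.97 ± 0.23 SE, adjusted p = 1.86e-10). The lower June level passed with tree as a block (log2 fold change -0.67), against -0.54 ± 0.22 SE, adjusted p = 0.0772 without it. Summed over the locus, LDOX was lower in June than in May without a block (log2 fold change -0.58 ± 0.13 SE, adjusted p = 7.05e-04). Both further LDOX contigs above 10 CPM, isotig11004 (log2 fold change -1.51 ± 0.13 SE, adjusted p = 9.92e-15) and GAEK01010156.1 (log2 fold change -1.52 ± 0.21 SE, adjusted p = 4.24e-08), fell between July and September. In isotig11004 the September libraries lay between 8.35 and 21.8 CPM and those of July between 17.4 and 50.0 CPM.

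The low LDOX contigs dipped in June instead. In June 12 of the 17 LDOX contigs were lower than in May, of which 6 made up all the LDOX contigs that were higher in September than in July. GAEK01019478.1, a leucoanthocyanidin dioxygenase by description, had lowest, median and highest libraries of 0.701, 3.96 and 16.7 CPM in May, 0.206, 0.777 and 5.46 CPM in June, 0.190, 1.39 and 5.12 CPM in July and 0.726, 3.71 and 14.7 CPM in September. Its June fall (log2 fold change -2.42 ± 0.39 SE, adjusted p = 2.95e-06) and its later rise (log2 fold change 1.64 ± 0.36 SE, adjusted p = 2.47e-04) were both larger than those of the leading ANR contig. GAEK01002188.1 fell by as much in June (log2 fold change -2.49 ± 0.51 SE, adjusted p = 1.78e-04), with a median of 0.718 CPM in June and 4.45 CPM in May. Over all 8 loci 40 contigs were lower in June than in May and 47 higher in September than in July, and 21 were in both sets (52.5% and 44.7% of them). Over all contigs tested 5595 and 9055 were in these sets and 2170 in both (38.8% and 24%). No library served in both comparisons, while 19 of the 25 trees did.

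Over both sites together, ANR, which makes the epicatechin-type units of tannins, was low in June and July. Its leading contig, isotig41949, had lowest, median and highest libraries of 19.5, 36.3 and 72.0 CPM in May, 13.5, 22.3 and 33.1 CPM in June, 9.74, 21.8 and 66.7 CPM in July and 20.1, 34.1 and 64.9 CPM in September. It fell in June (log2 fold change -0.75 ± 0.15 SE, adjusted p = 1.76e-04; not called with clock time) and was higher in September than in July (log2 fold change 0.54 ± 0.15 SE, adjusted p = 0.00346). In September its mean was close to that of May (35.7 ± 11.7 and 39.4 ± 13.8 CPM, SD), and no ANR contig passed between these months. The July low was not shared by the sites. With counts summed over the locus, ANR rose between June and July at Schluchsee (log2 fold change 0.70 ± 0.22 SE, adjusted p = 0.0134). At Wiesloch it did not pass then (log2 fold change -0.30 ± 0.22 SE, adjusted p = 0.313). Between July and September it rose at Wiesloch (log2 fold change 0.71 ± 0.21 SE, adjusted p = 0.00452). At Schluchsee it did not pass (log2 fold change 0.004 ± 0.22 SE, adjusted p = 0.994). The 2 further ANR contigs that fell in June and rose again in September averaged 0.922 and 1.04 CPM. Of the 28 pairs of leading contigs, CHS and LDOX had the most opposite courses over the 16 group means (r = -0.86), and F3'H and DFR (r = 0.70) the most similar. These points share trees and libraries, and the coefficients are descriptions.

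The second question was whether the sites differed. Schluchsee and Wiesloch differed mostly in July, when 63 members passed (31 higher and 32 lower at Schluchsee) against a background of 46.1% of all contigs (22.9% higher, 23.3% lower). In May 12 members passed (3 higher, 9 lower; background 7.47%), which was 20 without Cameron Lake tree 15 at Wiesloch and 1 with clock time. In June 19 passed (7 higher, 12 lower; background 5.88%), and 2 with clock time. Without Cameron Lake tree 10 at Schluchsee the June count was 12, without Salmon Arm tree 16 there 7, and at Wiesloch 8 without Cameron Lake tree 16 and 10 without Salmon Arm tree 15. In September 22 passed (13 higher, 9 lower; background 10.2%), and 13 without the 3 libraries with a higher floor. The month-by-site interaction passed in 50 members, with 34.9% of all contigs, in 100 with tree as a block and in 31 with clock time. The members' shares, 33.9% in July and 26.9% for the interaction, were below the background. Within the sites, 43 members changed between May and June at Schluchsee (background 14.1%) and 26 at Wiesloch (7.77%), and 32 between June and July at Schluchsee (17.0%) and 25 at Wiesloch (25.1%). These counts depended on the fit. The May to June count was 79 at Schluchsee and 61 at Wiesloch with the tree block, and at Wiesloch 1 with clock time, 16 without Cameron Lake tree 12 or 13 there, 15 without Cameron Lake tree 9 or Salmon Arm tree 12 or 15 and 12 without Salmon Arm tree 9. The June to July count at Wiesloch was 52 with the block, 4 with clock time and 14 without Cameron Lake tree 16 there. At Schluchsee it was 21 without Cameron Lake tree 9 and 18 without Salmon Arm tree 16. Between July and September 18 members changed at Schluchsee (8 higher, 10 lower; background 7.67%) and 76 at Wiesloch (48 higher, 28 lower; background 42.0%). The Schluchsee count was 8 without the 3 libraries with a higher floor, 10 without Cameron Lake tree 15 or Salmon Arm tree 13 there, and 37 with the tree block.

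**Figure D4:**
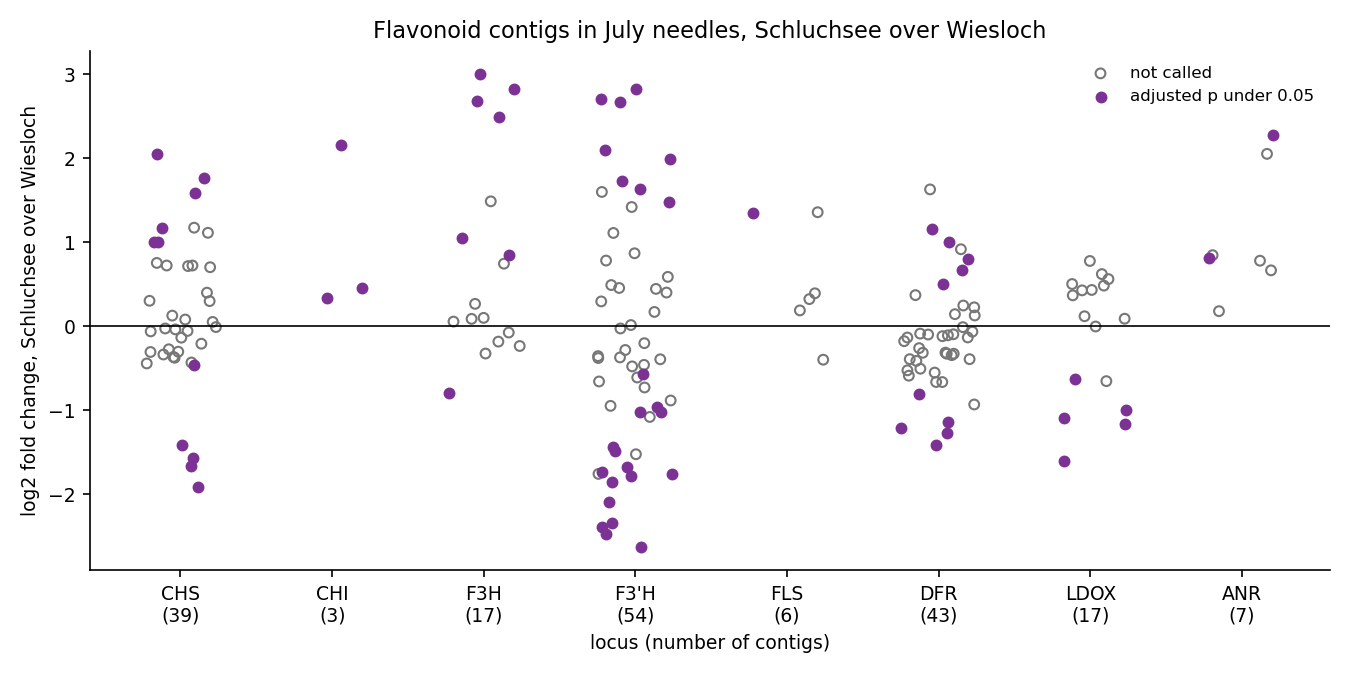
Log2 fold change of each flavonoid contig in July needles, Schluchsee over Wiesloch, by locus; filled points passed an adjusted p of 0.05 and open points did not. The 3 CHI contigs lie above 0 (0.33 to 2.15), 5 called LDOX contigs lie below it, and CHS, F3'H and DFR contigs fall on both sides.

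Of the 39 CHS contigs 6 were higher and 5 lower at Schluchsee in July (28.2% called, against 46.1% of all contigs). With counts summed over the locus CHS was lower at Schluchsee in July (log2 fold change -0.37 ± 0.16 SE, adjusted p = 0.0464) and over whole trees (log2 fold change -0.46 ± 0.09 SE, adjusted p = 0.00161). The sum was also lower there in June (log2 fold change -0.56 ± 0.17 SE, adjusted p = 0.0278) and in September (log2 fold change -0.50 ± 0.17 SE, adjusted p = 0.0343). In May it did not pass (log2 fold change -0.39 ± 0.16 SE, adjusted p = 0.0898). In July the abundant contig GAEK01004759.1 had lowest, median and highest libraries of 7.81, 35.1 and 83.7 CPM at Schluchsee and 13.1, 135 and 305 CPM at Wiesloch (log2 fold change -1.92 ± 0.54 SE, adjusted p = 0.0028). In September the contig had 29.7 ± 20.3 CPM at Schluchsee and 218 ± 215 CPM at Wiesloch (SD; log2 fold change -2.54 ± 0.60 SE, adjusted p = 0.0029). The leading contig did not pass, at 156 ± 40.8 CPM at Schluchsee and 192 ± 65.6 CPM at Wiesloch (SD, n = 10 each; -0.30 ± 0.22 SE, adjusted p = 0.258). All 3 CHI contigs were higher at Schluchsee, while their summed counts did not pass (log2 fold change 0.29 ± 0.13 SE, adjusted p = 0.0532). The largest difference was that of GAEK01018855.1, at 2.13 ± 0.871 CPM at Schluchsee and 0.473 ± 0.179 CPM at Wiesloch, groups that did not overlap (log2 fold change 2.15 ± 0.44 SE, adjusted p = 4.12e-05). The call of the leading CHI contig, GAEK01019443.1 (0.33 ± 0.13 SE, adjusted p = 0.0363), was lost without the 3 libraries with a higher floor (log2 fold change 0.31) and without any of 10 trees (0.27 to 0.32). These were Cameron Lake trees 9 and 11 and Salmon Arm trees 12 and 13 at Schluchsee, and Cameron Lake trees 12, 15 and 16 and Salmon Arm trees 9, 14 and 15 at Wiesloch. Summed over the locus, F3H did not pass in July (log2 fold change -0.19 ± 0.16 SE, adjusted p = 0.326). Of its 17 contigs 6 were higher and 1 lower at Schluchsee, all below 10 CPM, where 22.9% of all contigs were higher and 23.3% lower. The largest of them included GAEK01005983.1, with lowest, median and highest libraries of 0.274, 1.78 and 27.4 CPM at Schluchsee and 0.0926, 0.484 and 0.989 CPM at Wiesloch (log2 fold change 2.68 ± 0.62 SE, adjusted p = 2.96e-04).

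At the F3'H locus 16 contigs were lower and 8 higher at Schluchsee in July, and the summed counts did not pass (log2 fold change 0.02 ± 0.12 SE, adjusted p = 0.891). Of the 26 contigs described as flavonoid hydroxylases 11 were lower (42.3%, against 23.3% of all contigs) and 2 higher (7.69%, against 22.9%). Of the 24 similar to P450 71A1 6 were higher (25.0%) and 4 lower (16.7%), shares near those of all contigs. Whether the descriptions differed was not tested. GAEK01005902.1, of the second kind, had lowest, median and highest libraries of 124, 275 and 395 CPM at Schluchsee and 39.0, 65.0 and 112 CPM at Wiesloch, with no overlap (log2 fold change 1.99 ± 0.33 SE, adjusted p = 1.38e-06). The contig had moved in opposite directions since June, up at Schluchsee (1.14 ± 0.34 SE, adjusted p = 0.0129) and down at Wiesloch (-1.14 ± 0.34 SE, adjusted p = 0.00911), and its month-by-site interaction passed (adjusted p = 5.17e-05). The Wiesloch step was not called with clock time or without Cameron Lake tree 16 at Wiesloch (log2 fold change -0.34 and -0.93). The July libraries of isotig06075 did not overlap either, with 64.5, 169 and 412 CPM at Schluchsee and 3.35, 24.1 and 50.4 CPM at Wiesloch (log2 fold change 2.82 ± 0.46 SE, adjusted p = 6.12e-07). By September the means were 27.7 ± 23.5 CPM at Schluchsee and 23.2 ± 19.5 CPM at Wiesloch (SD). GAEK01018298.1, described as a flavonoid 3'-hydroxylase, went the other way (log2 fold change -1.86 ± 0.52 SE, adjusted p = 0.00262), at 4.61 ± 2.93 CPM at Schluchsee and 15.1 ± 12.4 CPM at Wiesloch (SD).

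Contigs of the tannin branch passed in July in 10 of 43 cases at DFR (23.3%), 5 of 17 at LDOX (29.4%) and 2 of 7 at ANR (28.6%), where 46.1% of all contigs passed. Summed over the locus, DFR was lower at Schluchsee (log2 fold change -0.42 ± 0.08 SE, adjusted p = 2.14e-05), ANR was higher (log2 fold change 0.77 ± 0.21 SE, adjusted p = 0.0018), and LDOX did not pass (log2 fold change -0.16 ± 0.18 SE, adjusted p = 0.475). Of the 28 DFR contigs described as dihydroflavonol reductases 4 were lower at Schluchsee (14.3%) and 1 higher. The leading contig had lowest, median and highest libraries of 44.9, 107 and 142 CPM at Schluchsee and 89.8, 160.2 and 276 CPM at Wiesloch (log2 fold change -0.80 ± 0.26 SE, adjusted p = 0.01). In isotig14438 the corresponding values were 39.8, 60.5 and 123 CPM at Schluchsee and 90.0, 148 and 208 CPM at Wiesloch (log2 fold change -1.14 ± 0.15 SE, adjusted p = 9.37e-09), and its month-by-site interaction passed (adjusted p = 6.95e-06). Of the DFR contigs described as anthocyanidin reductases 4 were higher at Schluchsee and 1, isotig14437, was lower. Among the 4 was GAEK01011271.1, with 30.1 ± 11.9 CPM at Schluchsee and 13.4 ± 3.35 CPM at Wiesloch (SD, n = 10 each; log2 fold change 1.15 ± 0.30 SE, adjusted p = 0.00116). LDOX contigs were lower at Schluchsee in 5 cases and higher in none. ANR contigs were higher in 2 cases and lower in none: isotig41949 had lowest, median and highest libraries of 14.6, 29.2 and 66.7 CPM at Schluchsee and 9.74, 17.8 and 35.5 CPM at Wiesloch (log2 fold change 0.82 ± 0.20 SE, adjusted p = 7.81e-04), and its interaction passed (adjusted p = 0.0221). Of the 2 FLS contigs above 10 CPM neither passed in July.

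Over whole trees, with the libraries of each tree summed and the month mix accounted for, 21 members differed between the sites (12 higher, 9 lower at Schluchsee; 17.0% of all contigs, 8.87% higher and 8.11% lower). Without the month mix 23 passed, of which 6 were higher and 17 lower. CHS contig GAEK01004759.1 was lower at Schluchsee, with lowest, median and highest trees of 6.35, 40.1 and 97.8 CPM (n = 13) and 5.00, 92.0 and 308 CPM at Wiesloch (n = 12; log2 fold change -1.47 ± 0.40 SE, adjusted p = 0.016). F3H contig GAEK01005983.1 was higher there, at 0.281, 1.88 and 16.6 CPM over Schluchsee trees and 0.196, 0.609 and 2.94 CPM over Wiesloch trees (log2 fold change 2.59 ± 0.51 SE, adjusted p = 0.0018). It was 1 of 6 F3H contigs that were higher and none was lower. Summed over the locus, F3H did not pass over trees (log2 fold change 0.22 ± 0.14 SE, adjusted p = 0.266). DFR contig GAEK01011808.1 was lower at Schluchsee, with trees at 4.2 ± 2.24 CPM there and 12.8 ± 10.1 CPM at Wiesloch (SD; log2 fold change -1.30 ± 0.31 SE, adjusted p = 0.00714). Of the 8 leading contigs none passed between the sites over trees.

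The third question was whether the provenances differed. Over whole trees 28 members passed between Cameron Lake and Salmon Arm (11 higher and 17 lower in Cameron Lake; 10.4% of all contigs, 4.34% higher and 6.1% lower). The count was 43 with DESeq2 and 15 without Salmon Arm tree 15 at Wiesloch. In the single months 15 passed in May (background 7.73%; 4 with clock time), 10 in June (3.67%), 27 in July (11.4%) and 10 in September (3.51%). The June count was 17 with DESeq2, 6 with the lowest counts set to 0 and 0 with clock time. It was also 6 without any of Cameron Lake tree 9 and Salmon Arm tree 13 at Schluchsee and Salmon Arm trees 13 and 15 at Wiesloch, and 18 without Salmon Arm tree 9 at Wiesloch. The July count was 13 without the 3 libraries unlike their own tree. It was 13 without Cameron Lake tree 12 and 14 without Salmon Arm tree 15 at Schluchsee, and at Wiesloch 16 without Cameron Lake tree 16, 17 without Salmon Arm tree 12 and 16 without Salmon Arm tree 14 there. No member passed for an interaction of month with provenance, where 0.00338% of all contigs passed. In edgeR 8 members had an unadjusted p under 0.05, and DESeq2 called none. None passed for provenance by site over trees, where no contig of 58999 passed and 15 members had an unadjusted p under 0.05.

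Summed over the locus, F3H did not pass between the provenances over trees (log2 fold change -0.24 ± 0.13 SE, adjusted p = 0.232). Among F3H contigs 7 of 17 contigs were lower in Cameron Lake over trees and none was higher. GAEK01005983.1 had lowest, median and highest trees of 0.227, 0.428 and 4.12 CPM in Cameron Lake (n = 12) and 0.196, 1.71 and 16.6 CPM in Salmon Arm (n = 13; log2 fold change -2.0 ± 0.49 SE, adjusted p = 0.015). The leading F3H contig did not pass, at 236 ± 59.6 CPM in Cameron Lake and 238 ± 45.5 CPM in Salmon Arm (SD; 0.04 ± 0.13 SE, adjusted p = 0.872). Summed counts of F3'H were higher in Cameron Lake over trees (log2 fold change 0.32 ± 0.10 SE, adjusted p = 0.0374), and those of the other loci did not pass. At the F3'H locus the leading contig was higher in Cameron Lake, with lowest, median and highest trees of 119.6, 269 and 425 CPM in Cameron Lake and 27.0, 101 and 320.5 CPM in Salmon Arm (log2 fold change 1.23 ± 0.34 SE, adjusted p = 0.0274). The 12 Cameron Lake trees all exceeded the Salmon Arm median. The call was lost without Salmon Arm tree 13 or tree 15 at Wiesloch (log2 fold change 1.07 and 1.03). In contrast, isotig06075 was lower in Cameron Lake, at 22.9, 71.2 and 177 CPM in Cameron Lake trees and 22.8, 182 and 448 CPM in Salmon Arm trees (log2 fold change -1.44 ± 0.27 SE, adjusted p = 0.00262).

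CHS contig GAEK01004759.1, lower at Schluchsee, was higher in Cameron Lake, with trees at 122 ± 102 CPM in Cameron Lake and 48 ± 36.0 CPM in Salmon Arm (SD; log2 fold change 1.47 ± 0.41 SE, adjusted p = 0.0266). The call was lost without any of Cameron Lake tree 13 and Salmon Arm tree 15 at Wiesloch and Salmon Arm tree 13 at Schluchsee (log2 fold change 1.49, 1.5 and 1.38). At the FLS locus a low contig, isotig72379, averaged 0.984 CPM and was named after its values were seen. Its lowest, median and highest trees had 0.0270, 0.120 and 0.183 CPM in Cameron Lake and 0.150, 1.20 and 6.87 CPM in Salmon Arm (log2 fold change -3.64 ± 0.51 SE, adjusted p = 2.75e-04). The Cameron Lake values correspond to a few counts per library, near the lowest counts in the files. Contig isotig14437 of the DFR locus, described as an anthocyanidin reductase, was higher in Cameron Lake, with 57.6, 99.5 and 114 CPM in Cameron Lake trees and 16.2, 42.8 and 101 CPM in Salmon Arm trees (log2 fold change 0.87 ± 0.16 SE, adjusted p = 0.00221). The leading contigs of CHS, CHI, FLS, DFR, LDOX and ANR did not pass between the provenances over trees.

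Trees of the same provenance and site also differed from each other. After the 16 group means were removed, a median of 70% of the remaining sum of squares of log2 CPM of the 186 members lay between tree means. Over all contigs tested the median was 59.9%. Trees with a single library count wholly as between trees, and tree means also differ by sampling alone. These shares would not vanish without a tree effect and are not the part due to trees. The median SD within a group was 0.897 on the log2 scale for the members and 0.539 for all contigs. By locus, the share between trees was highest at F3'H (75.9%) and DFR (74.0%) and lowest at LDOX (43.1%). A few contigs were close to absent in some trees and abundant in others, and the 4 of 10 CPM or more with the largest SD within groups are described here because of that spread. Means of the 25 trees ran between 0.0456 and 91.1 CPM for isotig27871 and between 0.0611 and 166 CPM for GAEK01018690.1, both described as flavonoid 3'-monooxygenases. They ran between 0.524 and 576 CPM for GAEK01027912.1, which has no description, and between 0.0889 and 25.1 CPM for isotig39154, a dihydroflavonol reductase by description. For isotig39154 the lowest tree means were 2.30 CPM in Cameron Lake and 0.0889 CPM in Salmon Arm, and the highest were 25.1 CPM in Cameron Lake and 24.3 CPM in Salmon Arm. The lowest of these values correspond to the lowest counts in the files.

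**Figure D5:**
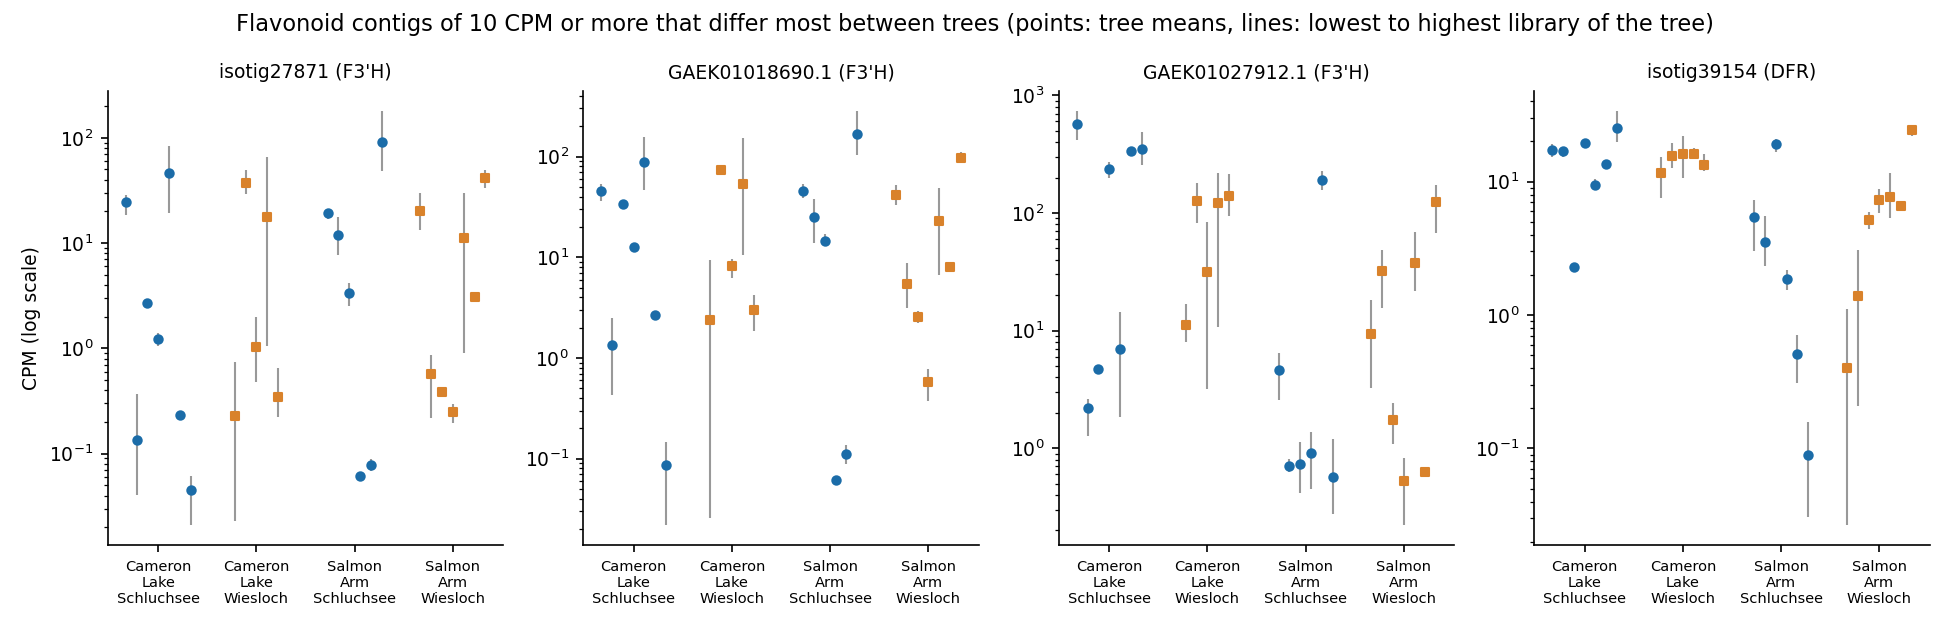
CPM on a log scale of the 4 flavonoid contigs with the widest spread within groups among those of 10 CPM or more, by provenance and site; points are means of single trees (circles for Schluchsee, squares for Wiesloch) and grey lines run from the lowest to the highest library of the tree. Most lines are short beside the distance between trees, and the long lines at Cameron Lake Wiesloch include tree 16, 1 of whose libraries was most like another tree's.

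Other genes of the pathway were read from lists, each locus through its most abundant contig. Of 9 entry enzymes 6 were measured, and 1 rose and 2 fell between May and September (32.5% of all contigs passed; median log2 change -0.39, against -0.02 over all contigs). PAL2, a phenylalanine ammonia-lyase, rose, with monthly means of 53.3, 38.6, 57.1 and 121 CPM (September against May 1.21 ± 0.23 SE, adjusted p = 2.51e-05). PAL4 had 37.3, 28.4, 24.4 and 14.4 CPM and fell (-1.34 ± 0.27 SE, adjusted p = 6.30e-05), as did 4CL2, a coumarate-CoA ligase (-1.01 ± 0.27 SE, adjusted p = 0.00202). C4H, the cinnamate hydroxylase, was lower in Cameron Lake over trees (-0.92 ± 0.24 SE, adjusted p = 0.0183). Of 9 side-chain, helper and decorating enzymes 4 were measured and 1 changed over the season (median -0.01), UGT73C6, a flavonol glycosyltransferase in Arabidopsis (-0.52 ± 0.10 SE, adjusted p = 3.11e-05). Of 4 transport genes only TT12, a vacuolar transporter of tannin precursors in Arabidopsis, was measured. It had 9.74, 18.5, 18.6 and 19.1 CPM and rose by June (0.85 ± 0.16 SE, adjusted p = 3.89e-05).

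Of 17 regulators 5 were measured, and 2 rose and 2 fell in June (19% of all contigs passed; median log2 change -0.20, against -0.01 over all contigs). The contig annotated as TT2, a MYB factor of seed-coat tannins in Arabidopsis, had 6.21, 2.21, 1.97 and 2.94 CPM and fell in June (-1.52 ± 0.25 SE, adjusted p = 3.06e-06). It was higher at Schluchsee in July (1.99 ± 0.34 SE, adjusted p = 1.99e-06). TT8, its bHLH partner, rose in June (0.60 ± 0.17 SE, adjusted p = 0.00791), and MYB4, a repressor in Arabidopsis, fell (-0.69 ± 0.19 SE, adjusted p = 0.00628). CPC, a small repressor-type MYB, rose in June (1.84 ± 0.15 SE, adjusted p = 3.22e-14) and was lower in September than in July (-1.35 ± 0.15 SE, adjusted p = 6.16e-11). Of 10 genes of light and ultraviolet-B signalling 7 were measured, and 2 rose and 1 fell over the season (32.5% of all contigs passed; median 0.06). BBX24 rose late (September against July 0.73 ± 0.19 SE, adjusted p = 0.00199), UVR8, the ultraviolet-B receptor, was higher in September than in May (0.46 ± 0.18 SE, adjusted p = 0.0472), and PHYB, a phytochrome, was lower (-0.40 ± 0.08 SE, adjusted p = 4.42e-05). HY5, an activator of CHS in Arabidopsis, was highest in June, at 31.0 CPM, and rose then (0.62 ± 0.19 SE, adjusted p = 0.0141). It was lower at Schluchsee in July (-1.14 ± 0.26 SE, adjusted p = 2.74e-04). The mesophyll markers fell in 5 of 7 cases between May and September and rose in none (17.9% of all contigs fell), beside the F3'H, DFR and LDOX falls.

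Outside the 8 loci, the contig most like the leading F3'H contig over the 16 group means was isotig07455, a linoleate 13S-lipoxygenase by description (r = 0.959). The one most like the leading ANR contig was isotig08215, annotated to the phytoene synthase locus (r = 0.960), and for LDOX it was GAEK01032037.1, an aspartic proteinase by description (r = 0.923). For CHS it was GAEK01008840.1, described as a tobamovirus multiplication protein (r = 0.945), and for DFR GAEK01008907.1, a serine carboxypeptidase-like protein (r = 0.906). The closest contigs to CHI (r = 0.852), FLS (r = 0.775) and F3H (r = 0.761) were less alike. Within the loci, 10 of the 38 further CHS contigs followed the leading one with an r above 0.8, while 20 of the 42 further DFR contigs had an r below 0.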

How the data were processed

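Needle RNA of 75 libraries from 25 trees was sequenced, and the deposited table holds 1 count per contig and library (59189 contigs). The submitters' processing notes name CASAVA 1.7, Bowtie2 2.1, HTSeq and TAIR10, with no role or order. Whether reads were assigned by strand is not given in the sources used here. The values are whole-number counts as deposited by the authors. They are never 0: the lowest is 1, and the most frequent low count is 2 in 72 libraries and 4 in 3 libraries. In all 4.89% of values lie at or below their library's most frequent low count. In the deposited file 29654 lines hold more cells than the 80 of the header, because each Gene Ontology term has its own cell, and the count columns were read from the end of each line. The values of 27 columns, recorded as other values in the deposited table because of those lines, are the same counts.

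Counts were tested with edgeR 4.0.16 in R 4.3.3 (with limma 3.58.1), by the quasi-likelihood F test with TMM scaling (factors 0.897 to 1.11) after its filter on low counts. P-values were adjusted by Benjamini-Hochberg over all contigs tested, with 0.05 as the threshold. Months, sites within months and provenances within months were compared in 1 fit of 16 group means over 75 libraries (59177 contigs). That fit had no term for the tree. Sites and provenances over trees were compared on counts summed per tree (25 trees, 58999 contigs), with the month shares of each tree as covariates. The standard error is the log2 fold change divided by the root of F. CPM values are TMM-scaled. Both fits were run on simulated counts that had the same dispersion for every contig and no tree effect. That run cannot show how the fit without a tree term treats libraries of the same tree.

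Tree numbers pair libraries within a provenance and site, since they are labelled as the same tree. Libraries of the same tree correlated at a median r of 0.824 over 645 tree-specific contigs, as against 0.034 between trees. The members and lists were chosen with earlier results of these data known. Text names the leading contig of each locus, other members of 10 CPM or more, and per comparison the 3 called members of 1 CPM or more with the largest changes; 3 further contigs are marked as named after their values were seen. Likeness was Pearson's r over 16 group means among contigs of 10 CPM or more. Alternatives were a tree block, DESeq2 1.42.0, other size factors, no filter, lowest counts set to 0, clock time, counts summed per locus, no month shares, each tree left out, and 2 sets of 3 libraries left out. The fits with a tree left out ran on the members and every 10th contig, with p-values adjusted against those contigs. Their calls were thus not adjusted over all contigs tested, unlike those of the full fit. Contig lengths and sequences were not used here.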

Additional observations from a re-analysis of the deposited data

Results flagged for a closer look

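For the leading contigs, 7 of 128 groups of 4 or 5 libraries held a library far from the others, where chance gives about 1 in 20. Each stood apart by Dixon's gap ratio. In Schluchsee Salmon Arm needles of June, tree 12 had 102.3 CPM of CHS contig GAEK01002875.1 (the others 171 to 184.1) and 129.0 CPM of F3H contig GAEK01012494.1 (204.5 to 212.8). At Wiesloch in May, Salmon Arm tree 14 had 233.3 CPM of the same CHS contig (79.61 to 122.6). Salmon Arm tree 13 at Schluchsee in May had 51.37 CPM of FLS contig GAEK01012525.1 (14.6 to 25.26) and 22.12 CPM of LDOX contig GAEK01010155.1 (46.94 to 52.02). In September Salmon Arm tree 12 at Wiesloch had 2.379 CPM of the LDOX contig (7.133 to 8.634), and Salmon Arm tree 15 at Schluchsee had 64.94 CPM of ANR contig isotig41949 (20.13 to 26.09).

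The seasonal course differed between the sites for DFR contig GAEK01004031.1 (month-by-site adjusted p = 0.023 in edgeR) and for ANR contig isotig41949 (adjusted p = 0.0221). The July means were 95.6 ± 39.1 CPM at Schluchsee and 160.2 ± 55.6 CPM at Wiesloch for GAEK01004031.1. For isotig41949 they were 32.8 ± 14.0 CPM at Schluchsee and 18.7 ± 7.07 CPM at Wiesloch (SD, n = 10 each).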

How the results depend on the processing

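Counts of members called stayed within 1.5 times in all 23 comparisons under other size factors and without a filter on low counts, and no named contig with a call changed direction under any setting run. Without the month shares the balance of the site calls over trees turned, with 6 higher and 17 lower at Schluchsee instead of 12 and 9. With tree as a replicate block the counts were 90 for June minus May, 28 for July minus June, 61 and 52 for these steps at Wiesloch, 79 for June minus May and 37 for September minus July at Schluchsee, and 100 for month by site. In the other 5 comparisons the block kept the count within 1.5 times. With the block and without the 3 libraries unlike their own tree, an alternative chosen after seeing the data, these 7 counts were 90, 28, 64, 50, 72, 40 and 88. The other alternatives chosen after seeing the data gave 8 for September minus July at Schluchsee and 13 for the September sites (without the 3 libraries with a higher floor), and 13 for the July provenances (without the 3 unlike their tree). With clock time, in 62 libraries, the counts were 34 (June minus May), 0 (July minus June), 1 and 4 (these steps at Wiesloch), 31 (month by site), 1 and 2 (sites in May and June) and 4 and 0 (provenances in May and June). DESeq2 called 17 for the June provenances and 43 for provenances over trees, and setting the lowest counts to 0 gave 6 for the June provenances. Counts summed per locus, of 8 loci, gave 6 (June minus May), 1 (July minus June), 6 (September minus May), 4, 2 and 5 (the 3 successive steps at Wiesloch), 3 (June minus May at Schluchsee), 1 (sites in May) and 3, 1 and 0 (provenances in May, June and September). The clock-time fit held only 3 of the 8 Wiesloch June libraries. Shares of all contigs under these alternatives are not given. The cause of the shifts, the smaller number of features or libraries included, was not tested.

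With each of the 25 trees left out in turn, the counts lay between 50 and 58 for June minus May, 3 and 12 for July minus June, 65 and 80 for September minus July, and 59 and 66 for September minus May. At Wiesloch the successive steps lay between 12 and 29, 14 and 29, and 64 and 79, and at Schluchsee between 36 and 45, 18 and 32, and 10 and 22. Site counts lay between 9 and 20 in May, 7 and 23 in June, 53 and 65 in July, 17 and 31 in September and 15 and 29 over trees. Provenance counts lay between 11 and 21 in May, 6 and 18 in June, 13 and 34 in July, 7 and 13 in September and 15 and 35 over trees. Month by site lay between 37 and 56, and both other interactions stayed at 0. For single contigs, 156 of the values with a tree left out were no longer called and 5525 kept their direction and their side of the threshold. Contigs below 1 CPM lie near the lowest counts of the files, which limits their fold changes.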
